A study of Mus musculus with 6 samples.

Results

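The 10 genes described here are canonical transcriptional targets of the co-activator YAP and its DNA-binding TEAD partners, taken by symbol and leaving out the CCN family: Ankrd1, Amotl2, Ajuba, Lats2, Axl, Tead1, Nuak2, Ptpn14, Arhgef17 and Fhl2. All 10 were found among the 55401 genes of the deposited table, and all 10 were among the 13590 genes with enough reads to test. They were measured by RNA-seq in cancer-associated fibroblasts (CAFs), the connective-tissue cells of a tumour, kept in culture. These CAFs came from tumours that mouse tumour organoids (MTOs) had formed in the rectum of wild-type (WT) hosts or of Thbs2KO hosts, which lack the matricellular protein thrombospondin-2. There were 3 libraries of each genotype, and all 6 came from cells grown on fibronectin-coated plates in DMEM with serum. The labels give no strain, sex or age of the hosts and do not say whether a replicate is a mouse, a pool or a culture. The p-values therefore rest on the variation among these 6 libraries alone, and that variation may be technical. In bulk RNA, fewer cells of a type and less RNA per cell cannot be told apart.

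The Hippo pathway is a kinase cascade that ends in LATS1 and LATS2, which phosphorylate YAP and its relative TAZ (gene Wwtr1) and keep them out of the nucleus. When the kinases are inactive, YAP and TAZ enter the nucleus and bind TEAD factors at target genes. In fibroblasts the pathway is known to respond to matrix stiffness, cell spreading and actomyosin tension, and YAP is known for its part in matrix remodelling by CAFs. Several of its targets, among them Lats2, Amotl2 and Ptpn14, encode proteins that restrain YAP, so that the pathway holds negative feedback loops.

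The letters near the start sites of these genes are shown first, because the group is defined by a DNA-binding factor. Promoter windows from RefSeq (GRCm38.p6), from 250 bases before to 50 bases after a start site, were given for 7 of the 10 genes, in 9 windows; Tead1, Nuak2 and Arhgef17 had no entry. The core of the TEAD motif, GGAATG, was searched on both strands, where it reads CATTCC on the other strand. It was present in 6 of the 9 windows, against 14.7% of all 32817 windows of that length. The SRF-binding CArG box was found in the 2 windows of Fhl2 and in no other window of the 10 genes, against 1.63% of all windows. No window of the 10 genes held both motifs. Each match is printed within 30 bases, read 5′ to 3′ on the strand of the gene, with the motif in capitals.
Ankrd1, chr19:36120037-36120066, minus strand: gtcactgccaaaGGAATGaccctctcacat
Ankrd1, chr19:36119950-36119979, minus strand: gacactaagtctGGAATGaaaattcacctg
Amotl2, chr9:102717727-102717756, plus strand: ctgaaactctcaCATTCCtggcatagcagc
Ajuba, chr14:54577830-54577859, minus strand: cgttgatggataCATTCCacagtgcccctc
Ajuba, chr14:54577808-54577837, minus strand: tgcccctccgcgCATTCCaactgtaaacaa
Lats2, chr14:57746102-57746131, minus strand: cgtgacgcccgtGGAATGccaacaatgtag
Axl, chr7:25788949-25788978, minus strand: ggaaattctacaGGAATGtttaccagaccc
Ptpn14, chr1:189728110-189728139, plus strand: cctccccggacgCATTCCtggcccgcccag
Fhl2, chr1:43163973-43164002, minus strand: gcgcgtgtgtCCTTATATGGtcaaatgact
Fhl2, chr1:43196838-43196867, minus strand: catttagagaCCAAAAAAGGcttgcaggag

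The pair of cores in Ankrd1 began 210 and 123 bases before the RefSeq start and the pair in Ajuba 186 and 164 bases before it. The single cores of Axl, Ptpn14 and Amotl2 began 233, 146 and 65 bases before the start, and that of Lats2 began at base 5 of the transcript, in 1 of its 2 windows. The CArG boxes of Fhl2 began 31 and 96 bases before its 2 starts. GENCODE M21 places the start of some transcripts farther upstream, so that 250 of the 250 bases before the RefSeq start of Ankrd1, 136 of those of Amotl2 and 223 of those of 1 Fhl2 start lie in an annotated exon. The bases before the starts of Ajuba and of the other Fhl2 transcript lie in no exon of those genes and are given whole, as 1 window with TEAD cores and 1 with a CArG box.
Ajuba, chr14:54577662-54577911, minus strand: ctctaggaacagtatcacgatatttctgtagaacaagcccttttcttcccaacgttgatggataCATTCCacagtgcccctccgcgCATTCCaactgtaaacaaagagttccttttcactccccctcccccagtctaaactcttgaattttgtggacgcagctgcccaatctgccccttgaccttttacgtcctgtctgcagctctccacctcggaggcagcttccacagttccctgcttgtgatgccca
Fhl2, chr1:43163962-43164211, minus strand: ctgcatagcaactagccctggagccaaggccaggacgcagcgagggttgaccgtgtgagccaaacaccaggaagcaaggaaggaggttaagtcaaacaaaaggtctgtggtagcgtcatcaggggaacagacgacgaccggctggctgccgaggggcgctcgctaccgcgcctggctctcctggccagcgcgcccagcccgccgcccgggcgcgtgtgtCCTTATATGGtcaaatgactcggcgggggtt

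The expected counts, in which RSEM estimates how many reads belong to each gene, summed to between 19649066 and 24417464 per library, and the lowest count of any of the 10 genes was 387 reads. Thbs2 itself measured 2327 to 4166 CPM (counts scaled to the library total with TMM factors) in the WT libraries and 412 to 538.2 CPM in the Thbs2KO libraries, and fell by 2.89 on the log2 scale (edgeR, Benjamini-Hochberg adjusted p = 0.00521). As a check of the cell type, the 8 fibroblast markers summed to between 23182 and 30515 CPM, mostly from Col1a1 and Col1a2. Single markers were less even. Pdgfra was higher in every Thbs2KO library (564.8 ± 181.4 CPM in WT and 1162 ± 317.4 in Thbs2KO), and Col1a1 was lower in every one. Dcn and Lum reached 1004 and 51.3 CPM in Thbs2KO replicate 3, against at most 352.4 and 9.10 CPM elsewhere. The groups overlapped for Pdgfrb, Col1a2, Thy1 and Fap. The 7 leukocyte markers summed to 2.15 to 13.9 CPM, with 4 of them (Ptprc, Adgre1, Cd3e and Cd79a) under 1 CPM in every library. Of the 4 mesothelial markers, 3 (Msln, Upk3b and Lrrn4) were also under 1 CPM. The 6 endothelial markers summed to 11.8 to 32.03 CPM in WT and 32.2 to 50.5 CPM in Thbs2KO; Pecam1, Cdh5, Emcn and Vwf stayed under 1 CPM in every library, and Kdr reached 45.0 CPM. The 9 epithelial markers summed to 19.9 to 26.5 CPM in WT and 7.28 to 9.63 CPM in Thbs2KO. Krt19 alone measured 9.86 to 14.6 CPM in WT and 3.57 to 6.21 CPM in Thbs2KO. Krt20 was also lower in every Thbs2KO library, while the groups overlapped for Epcam, Cdh1, Krt8 and Krt18. The log2 fold change was negative for all 6 epithelial markers tested, and Vil1, Cldn3 and Cldn7 stayed under 1 CPM. The 11 pericyte or smooth muscle markers summed to 415.3, 1429 and 1052 CPM in WT replicates 1, 2 and 3 and to 432.9, 573.4 and 438.3 CPM in Thbs2KO replicates 1, 2 and 3. The part of these cells in the results below was not tested. Chi-square over genes, divided by its degrees of freedom, was 15.7 between WT replicates 2 and 3 and at least 68.2 between either of them and WT replicate 1. It was 3.78 between Thbs2KO replicates 1 and 2 and at least 53.1 between either of them and Thbs2KO replicate 3, so that WT replicate 1 and Thbs2KO replicate 3 stood apart. The libraries did not divide by genotype in this measure. From WT replicate 1 to Thbs2KO replicates 1, 2 and 3 it was 54.2, 52.6 and 63.2, less than to the other WT libraries. Between WT replicate 2 and Thbs2KO replicate 2 it was 45.1, while WT replicates 2 and 3 stood at 106 and 122 from Thbs2KO replicate 3.

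All 10 target genes had a lower mean in Thbs2KO CAFs than in WT CAFs, with Thbs2KO means at 64.8% to 94.6% of WT, and none of them passed the test over all genes. Amotl2 and Nuak2 had the lowest ratios, 64.8% and 65.3%, and Fhl2 and Ptpn14 the highest, 94.6% and 91.7%. The edgeR quasi-likelihood test called 0 of the 10 at a Benjamini-Hochberg adjusted p below 0.05, against 1.09% of all tested genes in either direction and 0.537% lower in Thbs2KO. In simulated counts the same test called 12 of 50 genes changed by 1.5-fold, so the 0 calls do not show that the 10 are unchanged. At an unadjusted p below 0.05, 6 of the 10 were lower (Amotl2, Lats2, Nuak2, Arhgef17, Tead1 and Ajuba), against 7.56% of tested genes. DESeq2 called 1 lower, Amotl2, against 2.4% of the genes to which it gave an adjusted p, and limma-voom called 0. The groups did not overlap for 5 of the 10 (Amotl2, Lats2, Axl, Tead1 and Nuak2), all lower in Thbs2KO, against 10.3% of tested genes lower and 9.37% higher without overlap. The median log2 fold change of the 10 was -0.29, beside 0.00 for all tested genes, of which 50.9% were negative. These genes were chosen with an earlier result of the same libraries known, in which a YAP list was lower, so their common direction is not independent of it.

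**Figure D1:**
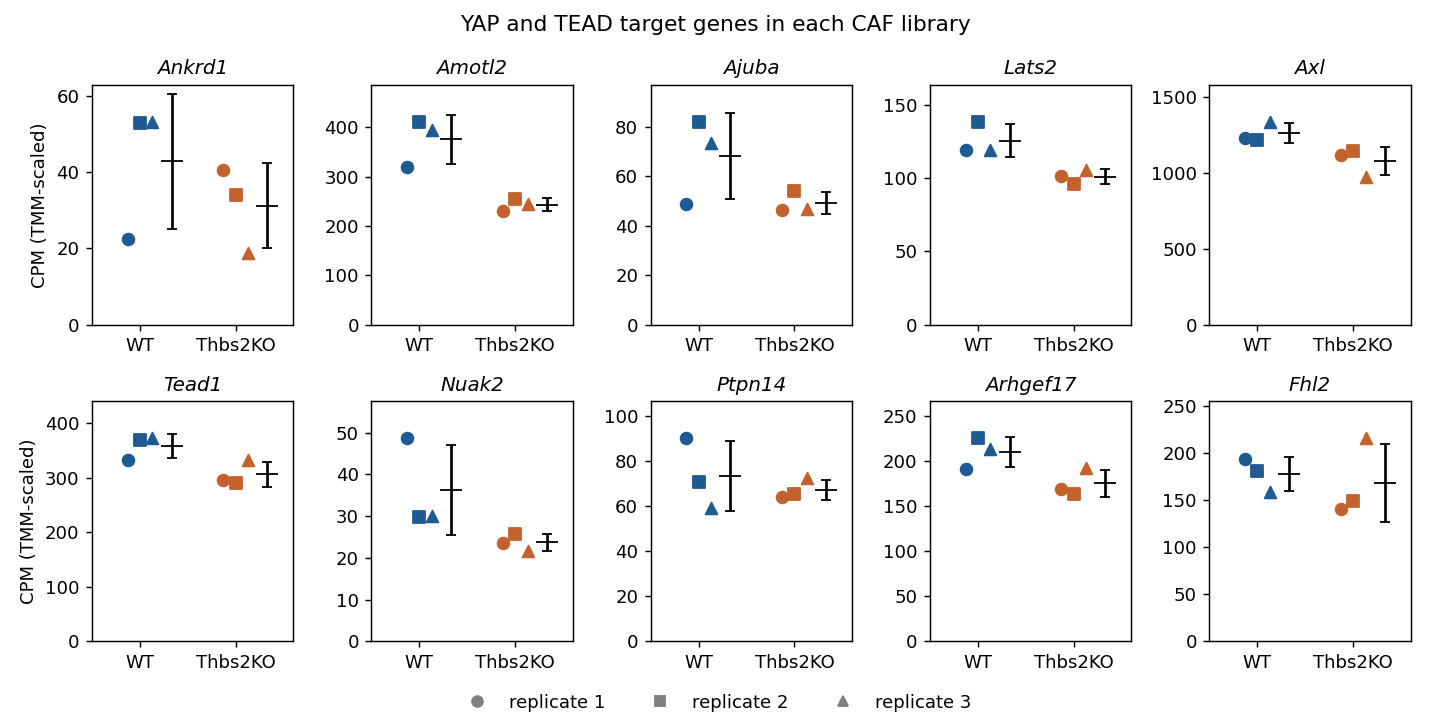
TMM-scaled CPM of the 10 target genes in each library; symbols mark replicates 1, 2 and 3, and the black bars beside them the mean and SD of the 3 libraries of a genotype. Each vertical axis starts at 0. The groups are apart for Amotl2, Lats2, Axl, Tead1 and Nuak2, while for Ankrd1 the lowest WT library (22.5 CPM) lies below the upper 2 Thbs2KO libraries.

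Amotl2 gave the smallest p of the 10. It encodes an angiomotin-like scaffold of cell junctions and actin that binds YAP and holds it outside the nucleus. Amotl2 measured 319.2, 411.9 and 395.6 CPM in WT replicates 1, 2 and 3 and 229.8, 255.7 and 244.1 CPM in Thbs2KO replicates 1, 2 and 3. The Thbs2KO libraries lay close together and all under the lowest WT library, which was replicate 1. Their means were 375.6 ± 49.5 and 243.2 ± 13.0 CPM (SD, n = 3 each). The log2 fold change was -0.63, with a 95% interval from -0.90 to -0.36 (edgeR, Benjamini-Hochberg adjusted p = 0.066). Without WT replicate 1 it passed the test (log2 fold change -0.73, edgeR adjusted p = 0.0152), and with each of the other 5 libraries left out in turn it did not.

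Lats2, a kinase that phosphorylates YAP, measured 119.1, 138.6 and 118.9 CPM in WT replicates 1, 2 and 3. In Thbs2KO it measured 101.1, 95.7 and 105.8 CPM. The groups did not overlap, and the log2 fold change was -0.32 with a 95% interval from -0.53 to -0.11 (edgeR, Benjamini-Hochberg adjusted p = 0.179). Of the exon bases of Lats2, 42.4% are shared with the gene model Gm49361 on the same strand, to which at most 4 reads per library were assigned, so the division of reads between them left Lats2 nearly all of them.

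Ajuba encodes a LIM-domain protein of junctions and focal adhesions that binds LATS kinases and restrains them. It measured 48.6, 82.1 and 73.5 CPM in WT and 46.5, 54.2 and 46.7 CPM in Thbs2KO. WT replicate 1 lay among the Thbs2KO libraries, and the other 2 WT libraries lay above all of them. The log2 fold change was -0.47 (95% interval -0.93 to -0.01, edgeR, Benjamini-Hochberg adjusted p = 0.367), and without WT replicate 1 it was -0.66 and passed the test (edgeR adjusted p = 0.0369). Without WT replicate 2 it was -0.30 (edgeR adjusted p = 0.716), and it passed in none of the other 5 comparisons with 1 library left out.

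Ptpn14 and Nuak2 complete the genes whose products feed back on the pathway. Ptpn14, a tyrosine phosphatase that binds YAP and holds it back, measured 90.3, 70.7 and 59.4 CPM in WT and 64.2, 65.4 and 72.5 CPM in Thbs2KO. The Thbs2KO values lay inside the WT range, and the 95% interval of the log2 fold change ran from -0.50 to 0.24 (edgeR, Benjamini-Hochberg adjusted p = 0.818). Its log2 fold change was -0.13 with all libraries and 0.05 without WT replicate 1. Nuak2, an AMPK-related kinase known to promote actomyosin contractility, measured 48.7, 29.8 and 30.1 CPM in WT and 23.6, 25.7 and 21.7 CPM in Thbs2KO. All Thbs2KO libraries lay below the WT libraries, and WT replicate 1 stood far above the other WT libraries. The log2 fold change of Nuak2 was -0.61 (95% interval -1.11 to -0.12, edgeR, Benjamini-Hochberg adjusted p = 0.266) and -0.34 without WT replicate 1.

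Tead1 encodes the TEAD factor with the highest level per length in these cells. It measured 333.4, 368.3 and 372.8 CPM in WT and 295.8, 290.0 and 332.8 CPM in Thbs2KO, where replicate 3 came within 1 CPM of the lowest WT library. Its means were 358.2 ± 21.6 and 306.2 ± 23.2 CPM (SD, n = 3 each), and its log2 fold change was -0.23, with a 95% interval from -0.44 to -0.02 (edgeR, Benjamini-Hochberg adjusted p = 0.338). Arhgef17 ran closely with it, at 191.9, 225.8 and 213.3 CPM in WT and 169.7, 163.6 and 192.7 CPM in Thbs2KO. Its groups overlapped only through Thbs2KO replicate 3, which lay just above WT replicate 1. The log2 fold change of Arhgef17 was -0.26 (95% interval -0.50 to -0.03, edgeR, Benjamini-Hochberg adjusted p = 0.316).

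Axl, a receptor tyrosine kinase whose ligand is Gas6, was the most abundant of the 10 per length. It measured 1230, 1222 and 1341 CPM in WT and 1118, 1147 and 974.7 CPM in Thbs2KO. The groups did not overlap, though they were separated by less than the spread within Thbs2KO. The log2 fold change was -0.23 with a 95% interval from -0.46 to 0.00 (edgeR, Benjamini-Hochberg adjusted p = 0.383).

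Ankrd1, an ankyrin-repeat protein widely used as a readout of YAP activity, varied most within genotypes. It measured 22.5, 52.8 and 53.3 CPM in WT and 40.6, 34.1 and 18.9 CPM in Thbs2KO. WT replicate 1 and Thbs2KO replicate 3 held the lowest value of each genotype, and the other 2 WT libraries lay above every Thbs2KO library. The coefficient of variation was 41.2% in WT and 35.6% in Thbs2KO, and the log2 fold change was -0.46 with a 95% interval from -1.41 to 0.49 (edgeR, Benjamini-Hochberg adjusted p = 0.723). With each library left out in turn, its log2 fold change ran from -0.77, without WT replicate 1, to -0.20, without Thbs2KO replicate 3.

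Fhl2, a LIM-only protein that acts as a transcriptional cofactor and the gene with CArG boxes in its windows, had the smallest difference. It measured 193.8, 180.4 and 158.4 CPM in WT and 140.0, 148.5 and 215.5 CPM in Thbs2KO. Thbs2KO replicate 3 was the highest of all 6 libraries, while the other 2 Thbs2KO libraries lay below every WT library. The 95% interval of its log2 fold change ran from -0.51 to 0.35 (edgeR, Benjamini-Hochberg adjusted p = 0.913). The value was -0.08 with all libraries and -0.30 without Thbs2KO replicate 3.

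**Figure D2:**
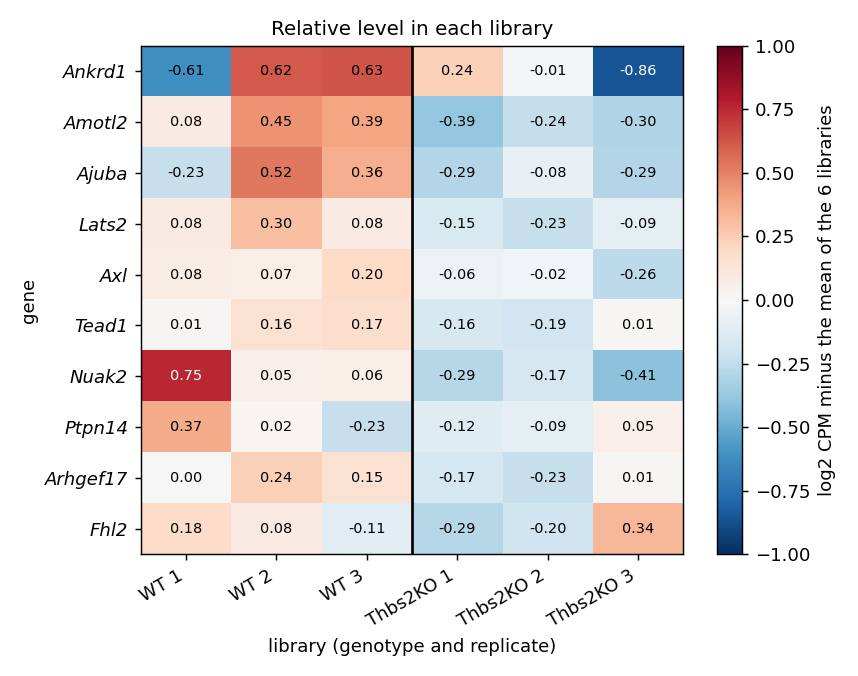
Level of each of the 10 genes (rows) in each library (columns), as log2 CPM minus the mean of the 6 libraries; red is above and blue below that mean, and the black line divides WT from Thbs2KO. WT replicate 1 stands at -0.61 for Ankrd1 and 0.75 for Nuak2, and Thbs2KO replicate 3 at -0.86 for Ankrd1 and 0.34 for Fhl2.

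The 2 libraries that stood apart did not shift the 10 genes in 1 direction. On the log2 scale WT replicate 1 lay below the mean of the other WT libraries by a difference of -1.24 for Ankrd1, -0.67 for Ajuba and -0.34 for Amotl2. It lay above them by 0.70 for Nuak2, 0.48 for Ptpn14 and 0.20 for Fhl2. Thbs2KO replicate 3 differed from the other Thbs2KO libraries by -0.97 for Ankrd1 and -0.22 for Axl, and by 0.58 for Fhl2 and 0.21 for Arhgef17. With both of these libraries left out, 6 of the 10 genes were lower by edgeR at a Benjamini-Hochberg adjusted p below 0.05 (Ankrd1, Amotl2, Ajuba, Lats2, Tead1 and Arhgef17). In that comparison of 2 libraries with 2, 6.37% of tested genes were called lower. Of the 4 libraries in it, the 2 of Thbs2KO are the most alike pair of the study. The 2 libraries left out were picked because they stood apart in these same data, so the p-values of that comparison may be too small. Nuak2, Ptpn14, Axl and Fhl2 had log2 fold changes of -0.28, -0.0047, -0.18 and -0.23 there and did not pass.

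**Figure D3:**
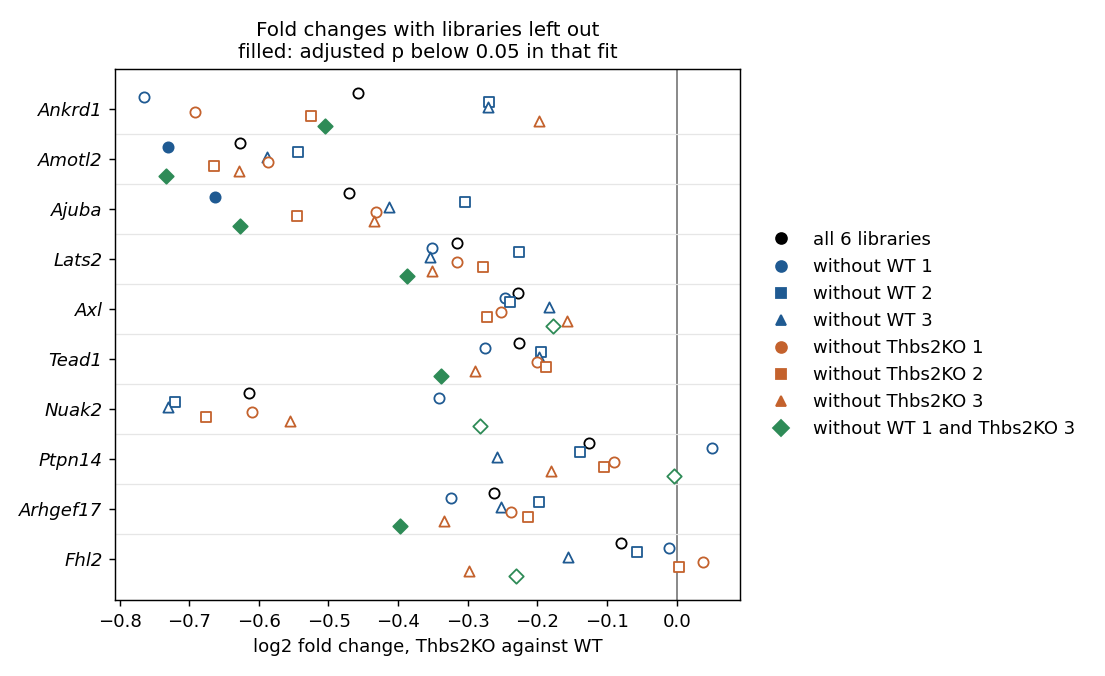
Log2 fold change of each of the 10 genes, Thbs2KO against WT, with all 6 libraries, with each library left out in turn and without both WT replicate 1 and Thbs2KO replicate 3; filled symbols passed an adjusted p of 0.05 in that comparison. Amotl2 stays between -0.73 and -0.54 with 1 library left out, while Fhl2 and Ptpn14 lie on either side of 0.

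Levels between the 10 genes were compared per kilobase of annotated exon (CPM per kb), since a longer transcript yields more reads. In WT the order was Axl at 251.2 ± 13.3 CPM per kb, Fhl2 at 93.6 ± 9.41, Amotl2 at 59.7 ± 7.87 and Tead1 at 26.4 ± 1.59 CPM per kb (SD, n = 3). Arhgef17, Ajuba, Lats2 and Ankrd1 followed at 19.5, 18.7, 18.0 and 14.9 CPM per kb; Arhgef17 lay below Tead1 by more than their SD, and neighbours among these 4 did not differ beyond their SD. Nuak2, at 9.24 ± 2.76 CPM per kb, overlapped Ankrd1 within SD, and Ptpn14 was lowest at 5.48 ± 1.17 CPM per kb. In Thbs2KO, Axl (214.6 CPM per kb), Fhl2 (88.6), Amotl2 (38.7) and Tead1 (22.6) held the same first 4 places. Union exon lengths count every annotated isoform, so genes with annotated exons that these cells do not use may be set too low. Tead1 and Ptpn14 had the longest union lengths of the 10, 13570 and 13413 bases. Which exons were used was not tested.

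Seen beside their paralogs, the target genes differed in how much of a family they made up, as a description with no test. Axl was 96.8% to 98.6% of the summed level of the TAM receptors (Axl, Mertk and Tyro3) in every library. Amotl2 was 65.5% to 73.1% of the angiomotin family in WT and 50.8% to 59.9% in Thbs2KO. Its paralog Amotl1 had every Thbs2KO library above WT, with WT at 197.7 to 214.0 CPM and Thbs2KO at 223.7 to 316.1 CPM (log2 fold change 0.32, edgeR, Benjamini-Hochberg adjusted p = 0.401); without Thbs2KO replicate 3 the log2 fold change was 0.15. Lats2 was 55.1% to 59.8% of the LATS pair in WT and 50.5% to 53.1% in Thbs2KO, with Lats1 at 96.9 ± 4.75 and 97.3 ± 1.12 CPM. Tead1 was 56.2% to 61.0% of the 4 TEAD genes in all libraries. Nuak2 was 55.4% of the NUAK pair in WT replicate 1 and 16.3% to 28.1% in the other libraries.

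**Figure D4:**
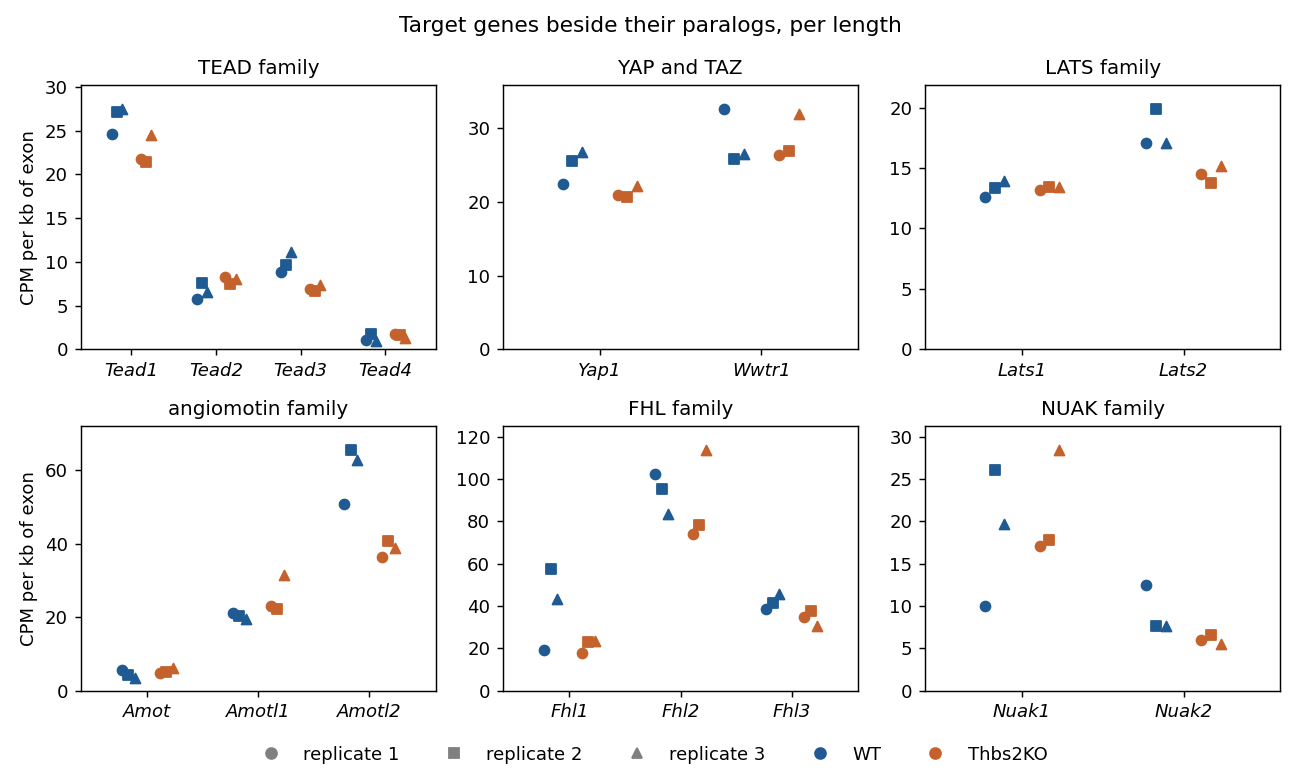
CPM per kb of exon for target genes and their paralogs in each library (blue, WT; orange, Thbs2KO; symbols, replicates 1 to 3), with each axis starting at 0. Tead1 is the highest of the TEAD family in every library, and Amotl2 and Lats2 are lower in each Thbs2KO library than in each WT library while Lats1 overlaps.

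Among the cofactors of the pathway, Vgll3 fell. Vgll3 encodes a vestigial-like protein that binds TEAD factors in place of YAP, and it measured 321.5, 372.7 and 365.8 CPM in WT and 190.2, 193.1 and 223.5 CPM in Thbs2KO. The log2 fold change was -0.80 (95% interval -1.04 to -0.57, edgeR, Benjamini-Hochberg adjusted p = 0.0217), and the groups were far apart. It was 1 of 7 tested genes in the list of YAP, TAZ, TEAD and VGLL factors. In that list 0 rose, 1 fell and 6 did not pass, with a median log2 fold change of 0.01. Of all tested genes, edgeR called 0.537% lower. At an unadjusted p below 0.05, 3 of the 7 were lower (Vgll3, Tead3 and Yap1), against 7.56% of tested genes, and 0 were higher, against 5.72%. The call of Vgll3 was lost when replicate 2 or 3 of WT (edgeR Benjamini-Hochberg adjusted p = 0.0754 and 0.105) or replicate 1 or 2 of Thbs2KO (0.14 and 0.117) was left out, with log2 fold changes between -0.88 and -0.75 over all 6 such comparisons.

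Tead3 measured 59.1, 64.5 and 74.7 CPM in WT and 46.0, 44.9 and 49.1 CPM in Thbs2KO, and its log2 fold change was -0.50 (edgeR, Benjamini-Hochberg adjusted p = 0.0875). It passed without WT replicate 1 (edgeR adjusted p = 0.04). Yap1 had means of 230.5 ± 20.9 and 197.0 ± 7.31 CPM in the 2 genotypes, a log2 fold change of -0.23 (95% interval -0.44 to -0.02, edgeR, Benjamini-Hochberg adjusted p = 0.337). Wwtr1, the gene of TAZ, measured 135.1 ± 18.0 and 135.6 ± 14.8 CPM, with a 95% interval of the log2 fold change from -0.29 to 0.30. These are transcript levels and do not show where the proteins are or whether they are phosphorylated.

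**Figure D5:**
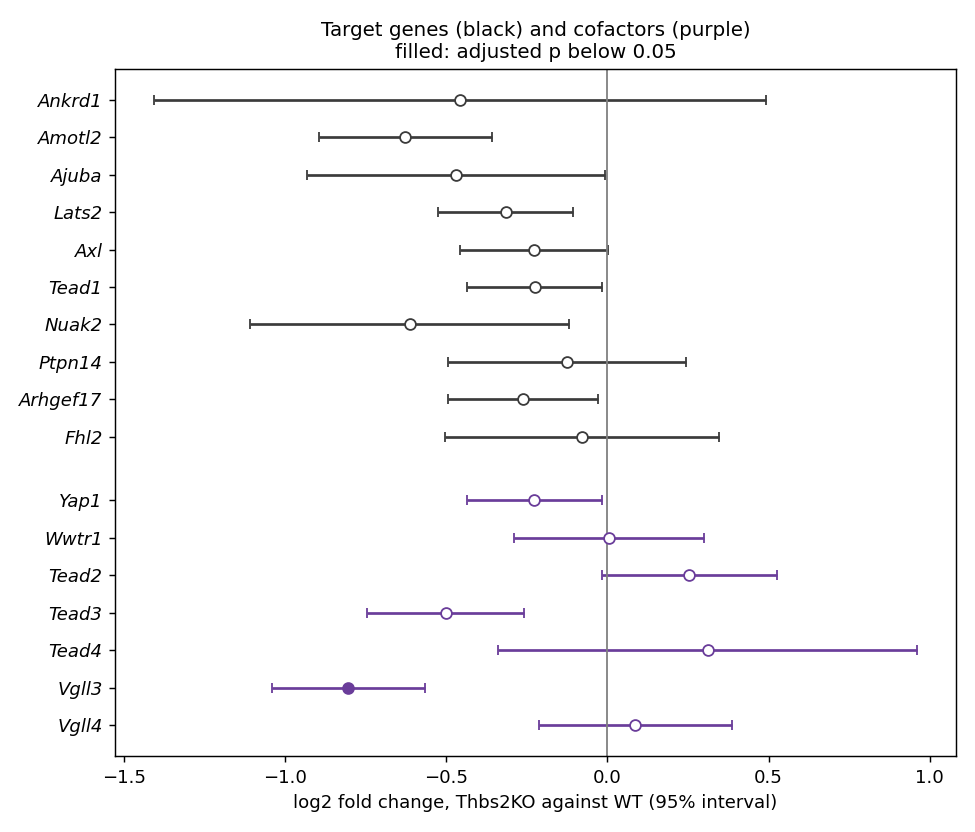
Log2 fold change in Thbs2KO against WT with its 95% interval for the 10 target genes (black) and for YAP, TAZ, TEAD and VGLL genes (purple); filled points passed an adjusted p of 0.05. All 10 target genes lie below 0 and none is filled, and Vgll3 at -0.80 is the only filled point.

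Of the 22 Hippo kinases and scaffolds listed, all tested, 0 rose, 1 fell and 21 did not pass, with a median log2 fold change of 0.00. Of all tested genes, edgeR called 0.537% lower. At an unadjusted p below 0.05, 2 of the 22 were lower (Mark4 and Wwc2), against 7.56% of tested genes, and 0 were higher, against 5.72%. The gene that fell was Mark4, a microtubule affinity-regulating kinase, with 47.05, 48.68 and 50.04 CPM in WT and 28.4, 32.1 and 28.0 CPM in Thbs2KO (log2 fold change -0.72, edgeR, Benjamini-Hochberg adjusted p = 0.016). Its call was lost without WT replicate 2, WT replicate 3 or Thbs2KO replicate 1 (edgeR adjusted p = 0.077, 0.0951 and 0.122), with log2 fold changes of -0.71, -0.70 and -0.69. Wwc2, a scaffold of the KIBRA family, had a log2 fold change of -0.30 (edgeR, Benjamini-Hochberg adjusted p = 0.271).

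Of 14 tested genes in the list of other YAP and TAZ targets, 0 rose, 1 fell and 13 did not pass, where edgeR called 0.537% of all tested genes lower. The log2 fold change was negative for 10 of the 14, the median being -0.30. The gene that fell was Ccn2, with 1215, 1777 and 2121 CPM in WT and 537.4, 571.7 and 650.3 CPM in Thbs2KO, and its relative Ccn1 measured 743.1 ± 103.2 and 549.5 ± 97.5 CPM. Ccn2 had a log2 fold change of -1.54 (edgeR, Benjamini-Hochberg adjusted p = 0.0299), and the call was lost without any 1 of the libraries except WT replicate 1, with adjusted p from 0.0647 to 0.164 and log2 fold changes from -1.62 to -1.35. At an unadjusted p below 0.05, 7 of the 14 were lower, against 7.56% of tested genes, and 1 was higher, against 5.72%. The latter was Gadd45a, a stress-inducible growth arrest gene with 32.1 to 35.8 CPM in WT and 45.8 to 69.3 CPM in Thbs2KO. The forkhead gene Foxf2 had a log2 fold change of -0.78 (edgeR, Benjamini-Hochberg adjusted p = 0.293).

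SRF and its MRTF cofactors form the other tension-responsive programme of fibroblasts. In their list of 17 tested genes 0 passed the edgeR test over all genes, the log2 fold change was negative for 16, the median being -0.60, and 16 were lower at an unadjusted p below 0.05, against 7.56% of tested genes. DESeq2 called 10 of them lower, against 2.4%. Of this list, 3 genes (Cnn1, Lmod1 and Myh11) are also in the list of pericyte or smooth muscle markers. Of those markers 5 of 10 tested were lower at an unadjusted p below 0.05, against 7.56% of tested genes. These 5 were the same 3 genes with Mcam and Actg2. The other tested markers Cspg4, Des and Abcc9 had log2 fold changes of 0.36, 0.05 and 0.02, and Kcnj8 and Notch3 had -0.35 and -0.18. The part of such cells in these values was not tested. Zyx, a focal adhesion protein, measured 693.0 ± 63.8 and 492.3 ± 8.08 CPM, Mrtfa 75.8 ± 7.79 and 52.5 ± 3.62 CPM, and Myh9 3360 ± 330.6 and 2438 ± 135.1 CPM in WT and Thbs2KO (edgeR, Benjamini-Hochberg adjusted p = 0.0691, 0.0706 and 0.117). Mrtfa passed without WT replicate 1 (edgeR adjusted p = 0.0358). Among 15 tested relatives of the target genes 0 rose and 0 fell by edgeR. With an unadjusted edgeR p below 0.05, 1 was higher (Tyro3) and 2 were lower (Fhl1 and Fhl3), against 5.72% and 7.56% of tested genes. DESeq2 called 1 higher, against 2.05%. These lists are not separate: Fhl1 is also counted among the SRF and MRTF genes. Limd1, Wtip, Amot, Amotl1 and Lats1 are also counted among the Hippo kinases and scaffolds. Tyro3, a receptor related to Axl, measured 22.8 ± 0.853 and 31.8 ± 1.79 CPM (edgeR, Benjamini-Hochberg adjusted p = 0.062), the opposite direction to Axl, and Gas6 measured 150.7 ± 58.7 and 150.6 ± 115.7 CPM. Fhl3 had a log2 fold change of -0.29 (edgeR adjusted p = 0.3), and Fhl1 had one of -0.91 with all libraries (edgeR adjusted p = 0.358), -1.24 without WT replicate 1 (edgeR adjusted p = 0.0289) and -0.55 without WT replicate 2 (edgeR adjusted p = 0.692).

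The profile of each of 2 target genes over the 6 libraries was compared with that of 10472 tested genes of at least 5 CPM, by the root mean square difference between log2 CPM centred on each gene's mean. The genes nearest to Ankrd1 were Tfrc, Mfsd2a, Mybl2, Hspb6 and Tg, with differences of 0.127, 0.135, 0.156, 0.19 and 0.195. Like Ankrd1, each of these 5 was lowest in WT replicate 1 among the WT libraries and in Thbs2KO replicate 3 among the Thbs2KO libraries. They were picked for likeness to Ankrd1, so this shared pattern follows from the choice. The genes nearest to Tead1 were Smim15, Creld1, Chfr, Cdc42ep4 and Snx18. None of these passed the test over all genes, and neither did Tead1, to which they were picked as alike. Among the 10 target genes themselves, Tead1 and Arhgef17 were the closest pair, at 0.0381, and Ankrd1 and Fhl2 the farthest apart, at 0.731. These distances rest on 6 libraries that share 1 genotype contrast and are a description only.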

How the data were processed

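RNA-seq libraries were made with the TruSeq RNA v2 kit, per the labels' protocols, which does not mark strand. The authors deposited expected counts per gene. Tools named per the submitters' processing notes are RSEM, STAR 2.7.3a and Trimmomatic 0.39, with the mouse build mm10. Neither RSEM's version nor an annotation was stated there. RSEM divides reads that fit several genes by estimate. Values were rounded to whole numbers, filtered with filterByExpr and scaled with TMM; the CPM values use these factors. Genotype was tested with edgeR 4.0.16 (robust quasi-likelihood, with no covariate beside genotype) in R 4.3.3, adjusted over all 13590 genes by Benjamini-Hochberg at 0.05. The 95% intervals were derived from the F statistic. The steps were run on counts simulated with the means, library sizes and dispersions of these data. Of 50 genes each given a 1.5-, 2-, 4- or 8-fold change, 12, 35, 49 and 47 were called. In that run 18 of 13390 unchanged genes were called, and with no gene changed 0 of 13590 were. The test thus often misses a change of 1.5-fold. Positions and exon lengths come from GENCODE M21 (GRCm38), joined by Ensembl identifier without version.

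The 10 genes and all lists were chosen with earlier results of these data known. Named genes were the 10, those called in each list and otherwise up to 3 with the smallest p, and the 5 nearest profiles to Ankrd1 and Tead1. Lats1, Wwtr1, Gas6, Ccn1 and the marker genes were named outside that rule. Alternatives were no filter, DESeq2 1.42.0, upper-quartile or RLE scaling, limma 3.58.1 with voom, a filter of 5 CPM in 3 libraries, no robust estimation, a replicate block, each library left out, WT replicate 1 and Thbs2KO replicate 3 both left out, Thbs2KO replicates 1 and 2 summed, and protein-coding genes only.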

Additional observations from a re-analysis of the deposited data

How the results depend on the processing

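None of the 10 target genes passed under RLE, upper-quartile scaling, the stricter filter, no robust estimation, limma-voom, summed Thbs2KO replicates 1 and 2, or protein-coding genes only. Without a filter 1 passed, with DESeq2 1, with 1 library left out from 0 to 2, and without both WT replicate 1 and Thbs2KO replicate 3, 6. Over all genes 148 passed; no filter gave 245, DESeq2 685, protein-coding genes only 86, summed Thbs2KO replicates 40, 1 library left out 38 to 397, and both libraries left out 1519. With 1 library left out the log2 fold change of Ptpn14 ran from -0.258 (without WT replicate 3) to 0.0504 (without WT replicate 1) and that of Fhl2 from -0.299 (without Thbs2KO replicate 3) to 0.0373 (without Thbs2KO replicate 1). For Fhl2 it was 0.0027 without Thbs2KO replicate 2 and 0.018 with replicates 1 and 2 summed, and the cause of these changes of sign was not tested. The other 8 were negative in all 17 alternatives.

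The labels do not say that replicate numbers pair the genotypes, so the number was not taken as a pairing. Deviations from the genotype mean correlated at -0.292, 0.171 and -0.331 over genes between same-numbered libraries. WT replicate 1 correlated best with Thbs2KO replicate 3 (0.396). Deviations within a genotype sum to 0, so these correlations depend on one another and cannot decide whether the numbers pair. With the replicate block 30 genes and 0 of the 10 passed, and Vgll3, Mark4 and Ccn2 had edgeR Benjamini-Hochberg adjusted p of 0.115, 0.132 and 0.0785. With Thbs2KO replicates 1 and 2 summed these were 0.129, 0.0734 and 0.156. With 3 libraries a genotype, the 95% intervals for Ankrd1, Axl, Ptpn14 and Fhl2 include 0. Left out singly, WT replicate 1 gave 397 calls over all genes, WT replicates 2 and 3 gave 79 and 49, and Thbs2KO replicates 1 and 2 gave 38 and 45.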
